A study of Mus musculus with 6 samples.

Results

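The apolipoprotein genes described here are Apoa1, Apoa2, Apoa4, Apoa5, Apob, Apoc1, Apoc2, Apoc3, Apoe and Apom. They were taken by gene symbol, 10 of the 24411 symbols in the tables, from counts of reads on the strand that fits the directional kit. RNA was sequenced in bulk from flash-frozen livers of male mice aged 24 weeks, all of the strain Cyr61fl/fl (floxed Cyr61 alleles in both groups) and all fed a diet that induces NASH, non-alcoholic steatohepatitis (12 weeks). The groups were 3 libraries of the genotype Control and 3 of the genotype Cyr61 KO. The labels give neither the Cre line nor the cells in which the gene was removed, nor whether the libraries come from different mice, so the p-values refer to the spread among libraries alone. Each library held 21032878 to 40377742 gene counts.

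Apolipoproteins are the protein shell of the particles that carry triglyceride and cholesterol in blood, and the liver is their main source together with the small intestine. Apolipoprotein B forms the frame of very low density lipoprotein, apolipoproteins A-I and A-II that of high density lipoprotein, and the small C proteins move between particles and tune lipoprotein lipase and clearance. Apolipoprotein E is the ligand by which remnant particles are taken up, and it is made by macrophages as well as hepatocytes.

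The genes lie at 5 places in the genome (GENCODE M21, GRCm38). Apoa1, Apoc3, Apoa4 and Apoa5 form a cluster on chromosome 9, at chr9:46228580-46230466 (plus strand), chr9:46232933-46235636 (minus), chr9:46240696-46243459 (plus) and chr9:46268633-46271919 (plus). Apoc2, Apoc1 and Apoe form a cluster on the minus strand of chromosome 7, at chr7:19671579-19677941, chr7:19689481-19692660 and chr7:19696109-19699188. Apob is at chr12:7977648-8016835 (plus), Apoa2 at chr1:171225054-171226379 (plus) and Apom at chr17:35128997-35132050 (minus).

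The promoters of 3 genes are shown because the levels of Apoa2 and Apoe followed each other most closely over the 6 libraries, whereas Apob had the pairs that differed most. Each is the 250 bases before the RefSeq start (GRCm38.p6), 5′ to 3′ on the gene's strand, from chr1:171224804-171225053 (plus), chr7:19699189-19699438 (minus) and chr12:7977427-7977676 (plus). Capitals mark TATAAA.
Apoa2: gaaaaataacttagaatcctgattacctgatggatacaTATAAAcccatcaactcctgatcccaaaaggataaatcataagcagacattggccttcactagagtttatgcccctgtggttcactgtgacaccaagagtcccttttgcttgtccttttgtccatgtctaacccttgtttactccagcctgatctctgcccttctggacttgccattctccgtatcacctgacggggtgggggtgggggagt
Apoe: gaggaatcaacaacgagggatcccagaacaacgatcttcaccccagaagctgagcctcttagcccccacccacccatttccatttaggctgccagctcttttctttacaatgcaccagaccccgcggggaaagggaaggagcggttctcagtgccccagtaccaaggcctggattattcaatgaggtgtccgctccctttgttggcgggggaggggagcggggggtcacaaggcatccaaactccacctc
Apob: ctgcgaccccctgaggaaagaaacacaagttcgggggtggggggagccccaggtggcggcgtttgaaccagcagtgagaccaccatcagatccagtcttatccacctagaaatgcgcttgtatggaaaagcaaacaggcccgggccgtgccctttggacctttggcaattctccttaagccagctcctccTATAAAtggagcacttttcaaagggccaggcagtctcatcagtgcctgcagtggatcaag
The letters TATAAA were in 3 of the 8 member promoters that RefSeq gave, against 12.4% of 32851 mouse promoters of the same length. Those 3 belonged to Apoa2, Apoa5 and Apob, so the Apoa2 and Apoe windows differ in this. AGGTCA, a site of nuclear receptors, was in 1 of 8 (Apoc2, 14% of all promoters). CAAAGTNCA, the core bound by HNF4, was in 1 of 8 (Apoa4, 1.19%), and CCAAT was in 1 of 8 (Apoa2, on the other strand, 33.8%). Motifs were sought on both strands and were chosen after the sequences were seen. A match describes the letters only.

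The row of Apoc2, the activator of lipoprotein lipase, is uncertain. Of its 813 exon bases 646, or 79.5%, also belong to Gm44805, an annotated read-through gene on the same strand at chr7:19671584-19681423 that joins Apoc4 to Apoc2, and all 3 coding exons are among them. They are shown because a read that falls in them could be assigned to either gene, and STAR leaves such reads out. They are exons of GENCODE M21 on GRCm38, minus strand, from chr7:19673547-19673601, chr7:19673229-19673379 and chr7:19671764-19671848, with the start codon in capitals.
Apoc2 first coding exon: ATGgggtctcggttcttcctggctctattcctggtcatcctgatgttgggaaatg
Apoc2 middle coding exon: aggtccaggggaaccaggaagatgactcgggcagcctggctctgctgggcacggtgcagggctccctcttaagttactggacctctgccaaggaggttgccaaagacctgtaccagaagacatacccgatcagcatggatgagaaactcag
Apoc2 last coding exon: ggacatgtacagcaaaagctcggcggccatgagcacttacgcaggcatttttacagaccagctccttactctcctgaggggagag
Apoc2 held 56, 114 and 74 counts in the controls and 112, 78 and 130 in the knockouts, and the read-through row was listed at 0 in every library. Whether the liver makes little Apoc2 RNA or its reads were left out cannot be told apart here.

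Cyr61, the targeted gene, measured 15.6, 32.4 and 27.8 CPM (TMM-normalised counts on a scale common to all libraries, used for all CPM below) in the controls, against 3.77, 2.66 and 3.14 CPM in the knockouts, with libraries always in the order of replicates 1, 2 and 3 (log2 fold change -2.98, edgeR adjusted p = 0.0103). Control replicate 2 stood apart: 50.9% of its reads were counted in genes against 82.8% to 87.6% elsewhere. Malat1, which is on none of the gene lists used here, was at 3738 CPM in that library against 56.5 to 128.5 CPM elsewhere. The summed level of 12 hepatocyte genes was 51107 CPM in it, against 125023 to 154779 CPM in the other libraries, and that of 10 cholangiocyte markers was 1480 CPM against 105 to 295 CPM. The 15 macrophage markers summed to 1200 to 2640 CPM in the controls and 365 to 931 CPM in the knockouts. Of 14 enterocyte markers, listed because intestine also makes apolipoproteins, Cdx1, Sis and Alpi were at 0 in every library. Fabp2 and Anpep held at least 2654 and 2498 counts in every library. Cdx2, Lct, Cdh17, Muc2 and Krt20 held at most 14 counts in any library, and Vil1, Slc5a1 and Lgals4 held 9 to 499. Which cells gave the Fabp2 and Anpep reads was not tested. Dmbt1, a mucosal gene, was at 1151 CPM in Control replicate 2 and at most 0.449 CPM elsewhere. By edgeR 0 of 12 hepatocyte, 5 of 15 macrophage, 3 of 10 stellate, 0 of 10 cholangiocyte and 0 of 6 tested enterocyte markers were called. All 8 were lower in the knockouts, where 2.37% of all tested genes were called lower. Unadjusted p was under 0.05 for 0 hepatocyte, 10 macrophage, 6 stellate, 8 cholangiocyte and 3 enterocyte markers, where it was so for 27.4% of all tested genes. DESeq2 called 0, 10, 5, 5 and 1 of them in that order, where it called 16.8% of all genes to which it gave an adjusted p. All of these DESeq2 calls were lower except 1 macrophage marker. The part of these differences in the results below was not tested except by leaving that library out.

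No apolipoprotein gene passed the test between genotypes. All 10 were abundant enough to be tested, and 0 were called by edgeR (adjusted p below 0.05 over the 13563 genes tested), where 3.44% of all tested genes were called. Unadjusted p was under 0.05 for 0 members, against 27.4% of all tested genes, and DESeq2 called 1, Apob, against 16.8% of all genes. The groups overlapped in 10 of 10 members, while 35.2% of all tested genes had separate groups (17.9% with every knockout lower and 17.3% with every knockout higher). The log2 fold change of Cyr61 KO over Control was above 0 for 8 members and below 0 for 2, with a median of 0.29 against -0.03 for all genes. The 12 hepatocyte genes had a like median of 0.30, with 1 below 0, so this lean was not particular to the members. The members' median was 0.02 with library totals as the only scaling, where the median of all genes shifted to -0.30. With scaling to hepatocyte genes the members' median was -0.11, where that of all genes shifted to -0.48. The members' median stood above that of all genes in each of these scalings. A scaling shifts the members and all genes together, so this order is no separate evidence. The 95% intervals were wide and ran from a lower bound of -1.32 for Apoc1 to an upper bound of 2.08 for Apob and each reached past a 2-fold difference in at least 1 direction. In bulk tissue, fewer cells of a type and less RNA per cell cannot be told apart.

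**Figure D1:**
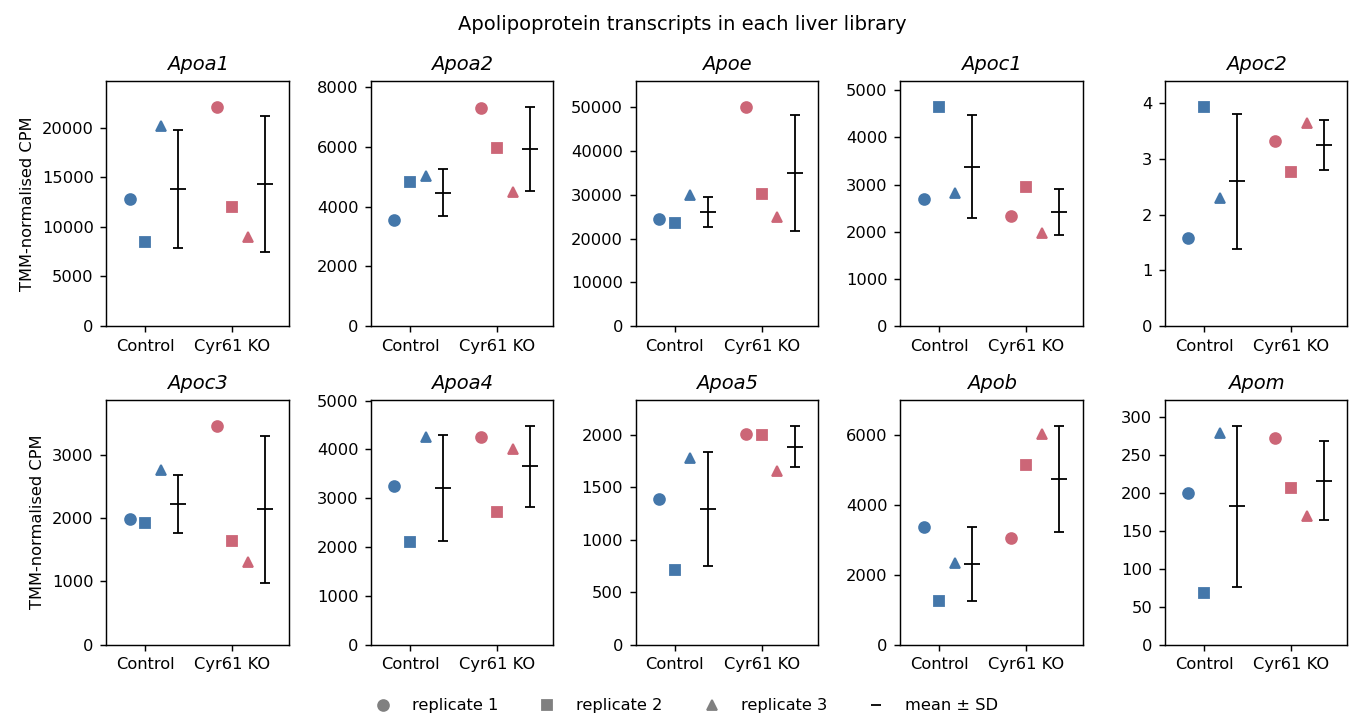
TMM-normalised CPM of each apolipoprotein gene in the 3 Control and 3 Cyr61 KO libraries; points are libraries, bars the mean and SD. The groups overlap in all 10 panels, and Apob reaches 5124 and 6028 CPM in 2 of the knockouts.

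Apob came nearest to a difference. It encodes the frame protein of very low density lipoprotein. The control libraries held 3366, 1242 and 2333 CPM, the Cyr61 KO libraries 3058, 5124 and 6028 CPM. Knockout replicates 2 and 3 lay above every control, replicate 1 lay within them, and Control replicate 2 was lowest. The means were 2314 ± 1062 and 4737 ± 1523 CPM (SD, n = 3 each). The log2 fold change was 1.03 ± 0.46 (SE, 95% interval -0.01 to 2.08, edgeR adjusted p = 0.187), and DESeq2 put it just past the threshold at 1.04 (adjusted p = 0.0485). Without Control replicate 2 it was 0.75 (edgeR adjusted p = 0.246).

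Of the genes of high density lipoprotein, Apoa1 encodes its main protein and the activator of the cholesterol-esterifying enzyme LCAT. It was at 12807, 8477 and 20198 CPM in the controls and 22074, 12022 and 8964 CPM in the knockouts. The lowest and highest values were alike in both groups, and the log2 fold change was 0.05 ± 0.51 (95% interval -1.11 to 1.22, edgeR adjusted p = 0.955). Its sign turned without Cyr61 KO replicate 1 (-0.39). Apoa2, the second protein of the particle, was at 3557, 4810 and 5014 CPM and at 7303, 5977 and 4496 CPM. Its highest 2 values were knockouts and the third knockout fell within the controls (0.41 ± 0.37, 95% interval -0.43 to 1.25, adjusted p = 0.496). Apom, the carrier of sphingosine-1-phosphate on these particles, was at 200.05, 68.0 and 279 CPM and at 273, 207 and 170.0 CPM. Control replicate 2 was lowest in the set, and the log2 fold change of 0.25 ± 0.46 (adjusted p = 0.748) was -0.12 without it.

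Apoa4 and Apoa5 belong to the same cluster as Apoa1. Apoa4, linked to triglyceride secretion, was at 3250, 2105 and 4264 CPM in the controls and 4254, 2707 and 4001 CPM in the knockouts. The groups covered almost the same range (0.19 ± 0.39, edgeR adjusted p = 0.776). Apoa5, which supports lipolysis by lipoprotein lipase, was at 1390, 709 and 1776 CPM and at 2008, 1994 and 1658 CPM. Its knockouts were closely spaced, at a mean of 1887 ± 198 CPM against 1291 ± 540.3 CPM (SD, n = 3 each), and the log2 fold change of 0.55 ± 0.39 did not pass (95% interval -0.33 to 1.42, adjusted p = 0.379). Control replicate 2 was lowest, and the log2 fold change ran from 0.28 to 0.86 when each library was left out. Exons of the opposite strand overlap Apoa4 and Apoa5, but counts on that strand were at most 0.252% of the summed strand counts for members other than Apoc2.

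The C genes and Apoe did not pass either. Apoc1, an inhibitor of lipoprotein uptake and lipase, was at 2691, 4640 and 2819 CPM in the controls and 2333, 2948 and 1974 CPM in the knockouts. Control replicate 2 was highest, and only Cyr61 KO replicate 2 reached into the control range (-0.48 ± 0.37, 95% interval -1.32 to 0.35, edgeR adjusted p = 0.416). Without Control replicate 2 it was -0.16. Apoc3, an inhibitor of triglyceride clearance, was at 1994, 1933 and 2763 CPM and at 3466, 1643 and 1314 CPM. Knockout replicate 1 was above every control and replicates 2 and 3 below every control (-0.06 ± 0.43, adjusted p = 0.939). Apoe was at 24583, 23549 and 29942 CPM and at 50014, 30185 and 24843 CPM. Replicate 1 of the knockouts stood above the rest, and the other 2 were within or just above the controls (0.43 ± 0.46, 95% interval -0.62 to 1.48, adjusted p = 0.569). Without that library the log2 fold change was 0.089. Apoc2 was at 1.57, 3.92 and 2.29 CPM and at 3.33, 2.77 and 3.64 CPM (0.33 ± 0.41, adjusted p = 0.628), with the limit given above.

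**Figure D2:**
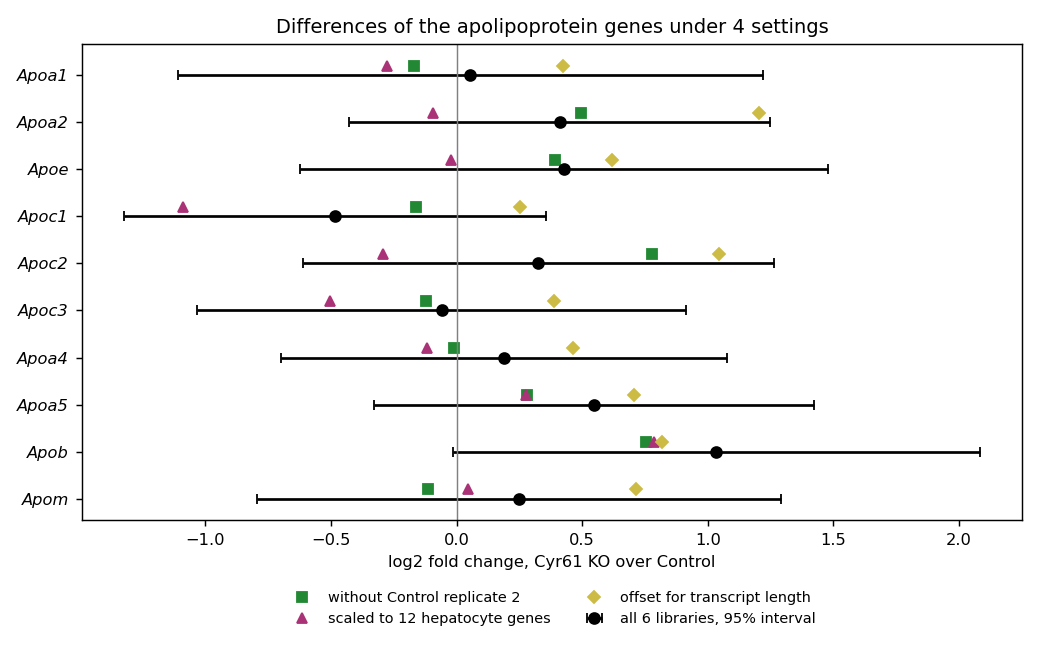
Log2 fold change of each apolipoprotein gene, Cyr61 KO over Control, under 4 settings; bars on the main fit are 95% intervals. Every main interval crosses 0, and Apoc1 and Apoc3 are above 0 with the length offset.

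Longer and shorter genes moved differently between the libraries, and the members differ in length. Among genes with a mean of at least 10 CPM, the 149 with a union exon length under 1 kb had median centred log2 CPM of 0.09, 0.38 and 0.37 in the controls and 0.12, -0.39 and -0.62 in the knockouts. The 1475 genes over 8 kb were at -0.06, -0.28 and -0.17 and at -0.02, 0.24 and 0.25. Apob has an exon length of 13934 bases and Apoc1 and Apoa2 of 744 and 537, and the median log2 fold change of their length classes was 0.32 over 8 kb and -0.53 under 1 kb. With an offset for length, added after seeing the data, the log2 fold changes were 0.82 for Apob (edgeR adjusted p = 0.273), 0.25 for Apoc1, 0.39 for Apoc3 and 1.20 for Apoa2 (adjusted p = 0.084). All 10 members were then above 0, at a median of 0.66, and 0 were called. The values of all genes and of the hepatocyte genes with this offset are not given here. No lean particular to the members can therefore be read from that median. The cause of the length trend was not tested.

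**Figure D3:**
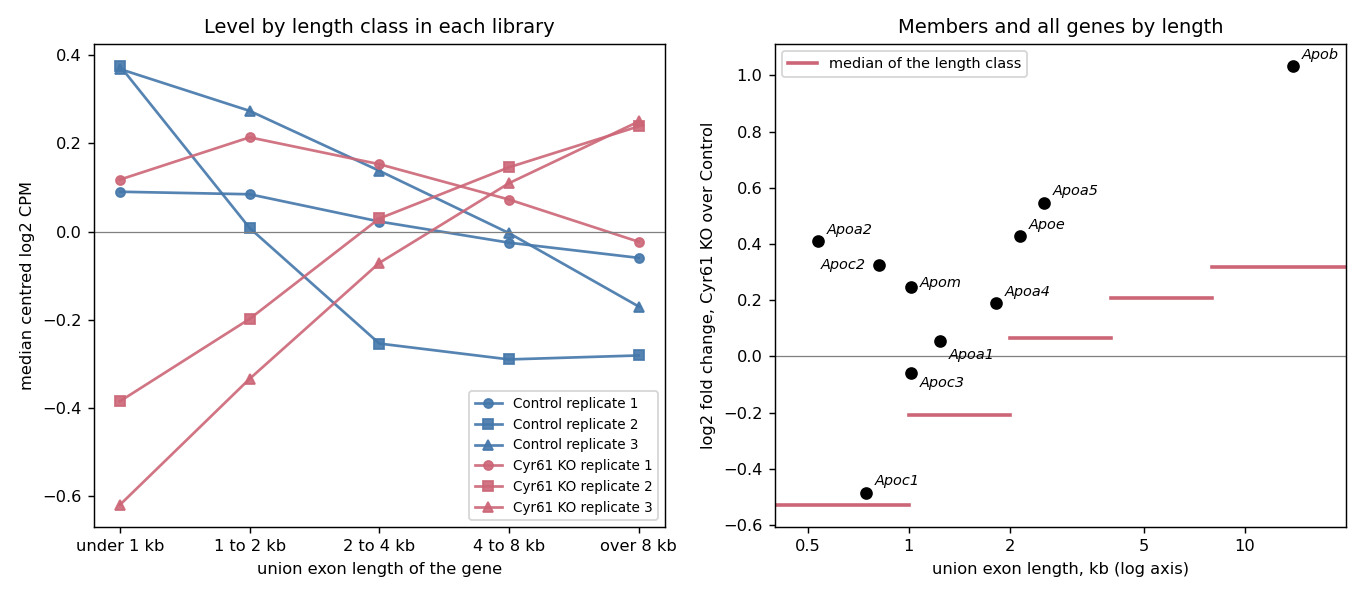
Left, median centred log2 CPM of 5 exon length classes in each library; right, log2 fold change against union exon length on a log axis, for members and all genes. Cyr61 KO replicates 2 and 3 run from -0.39 and -0.62 under 1 kb to 0.24 and 0.25 over 8 kb; the other libraries end lower over 8 kb than they start under 1 kb.

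The 10 genes together held 5.50%, 6.57% and 6.44% of all gene counts in the controls and 7.90%, 5.69% and 5.39% in the knockouts. The means were 6.17% ± 0.58 and 6.33% ± 1.37 (SD, n = 3 each), a difference of 0.156 percentage points that was smaller than the spread within either group (exact permutation test, two-sided p = 0.9, smallest possible 0.1). The difference was -0.177 when Control replicate 1 was left out and -0.632 when Cyr61 KO replicate 1 was. Within the members' counts Apoe made up 43.2% to 52.8% and Apoa1 16.8% to 29.1% of each library. The share of Apob was 6.25%, 2.61% and 3.36% in the controls and 3.23%, 8.16% and 11.3% in the knockouts, and that of Apoc1 5.0%, 9.76% and 4.06% against 2.46%, 4.69% and 3.69%. These shares are of counts and not per length.

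**Figure D4:**
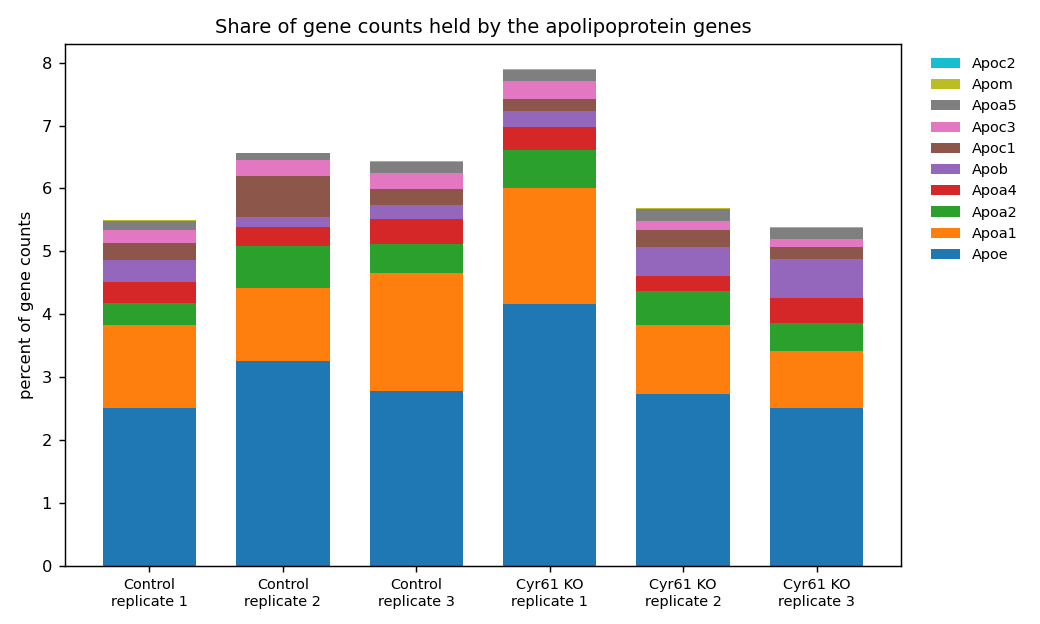
Percent of all gene counts held by each apolipoprotein gene, stacked, in each library. The sum runs from 5.39% to 7.90% with Cyr61 KO replicate 1 highest; Apoc2 and Apom are too thin to see.

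Per exon length, the order of the genes' levels was Apoe, Apoa1, Apoa2, Apoc1, Apoc3, Apoa4, Apoa5, Apob, Apom and Apoc2. Their means over the 6 libraries were 36296, 28484, 24973, 10624, 5488, 4835, 1591, 655, 489 and 9.67 on the TPM scale (counts divided by exon length and scaled to a fixed sum per library). Apoe was above Apoa1 in 5 of 6 libraries, Apoa1 above Apoa2 in 3 of 6 and Apob above Apom in 4 of 6, so these neighbours were not separated in every library. Apoa2 was above Apoc1, Apoa4 above Apoa5, Apoa5 above Apob and Apom above Apoc2 in 6 of 6, while Apoc1 over Apoc3 and Apoc3 over Apoa4 held in 5 of 6. The union exon length can exceed that of the transcript the liver makes, which lowers a gene in this order.

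The shape of the levels over the libraries was compared by the root mean square (RMS) difference of log2 CPM, each gene centred on its mean over the 6 libraries. Apoa2 and Apoe, on different chromosomes, were closest (0.195), followed by Apoa1 and Apoc3, neighbours in the chromosome 9 cluster (0.251), and Apoa5 and Apom (0.274). Apob was farthest from Apoc1 (1.08) and Apoc3 (1.04). Among 8151 genes with a mean of at least 10 CPM, the profiles nearest to that of Apob were those of Abcc2 (0.059), a canalicular export pump, Chdh (0.114), a choline dehydrogenase, Prkaa2 (0.116), a subunit of AMP-activated kinase, Pds5a (0.120), a cohesin regulator, and Gclc (0.132), a glutathione synthesis enzyme. Their log2 fold changes were 0.99, 1.07, 1.19, 1.01 and 1.09, and none of the 5 was called. All share the same libraries, so likeness here describes these 6 samples.

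Genes of the pathway are given by lists, with median log2 fold changes to be read against -0.03 over all tested genes. Counts are to be read against 3.44% of genes called by edgeR, 16.8% by DESeq2 and 27.4% with an unadjusted p under 0.05. Of the other genes with apolipoprotein symbols, 11 of 15 were tested and 0 called by edgeR (median -0.23, 2 with an unadjusted p under 0.05, 0 called by DESeq2). Clu, or apolipoprotein J, was at 4232, 2559 and 5925 CPM and at 3220, 2133 and 2204 CPM (-0.75, edgeR adjusted p = 0.265), and Apoh at 0.35. The serum amyloid A genes, acute phase proteins that join high density lipoprotein, were a separate case: 3 of 4 fell and 0 rose (median -3.15), where 2.37% of tested genes were called lower and 1.07% higher. Saa1 was at 313, 253 and 1879 CPM in the controls and 93.8, 37.3 and 48.8 CPM in the knockouts, so every knockout lay below every control and Control replicate 3 was far above the other controls. Its log2 fold change of -3.76 passed (edgeR adjusted p = 0.0448), as did the -2.22 found without Control replicate 3 (0.021). Saa2 was at -4.41 (adjusted p = 0.0277) and Saa3 at -2.54 (0.0248), both called, while Saa4 was at 0.04. Saa2 measured 145, 181 and 1030 CPM in the controls, so Control replicate 3 was again highest, and its log2 fold change without that library was -2.92 (adjusted p = 0.0105). Saa1 and Saa2 are near copies, so their separate counts are uncertain. Saa1 was also lost without Control replicate 1 or Cyr61 KO replicate 3 (0.0502 and 0.0673). The calls of all 3 were lost without Cyr61 KO replicate 1 (edgeR adjusted p = 0.101, 0.0931 and 0.0878 for Saa1, Saa2 and Saa3) or replicate 2 (0.191, 0.12 and 0.0588). Leaving out each library in turn gave 7 to 878 calls over all genes, against 467 with every library. Lost calls here and below are to be read against that range. The log2 fold changes stayed within -4.24 to -2.22 for Saa1, -4.80 to -2.92 for Saa2 and -2.83 to -2.17 for Saa3.

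**Figure D5:**
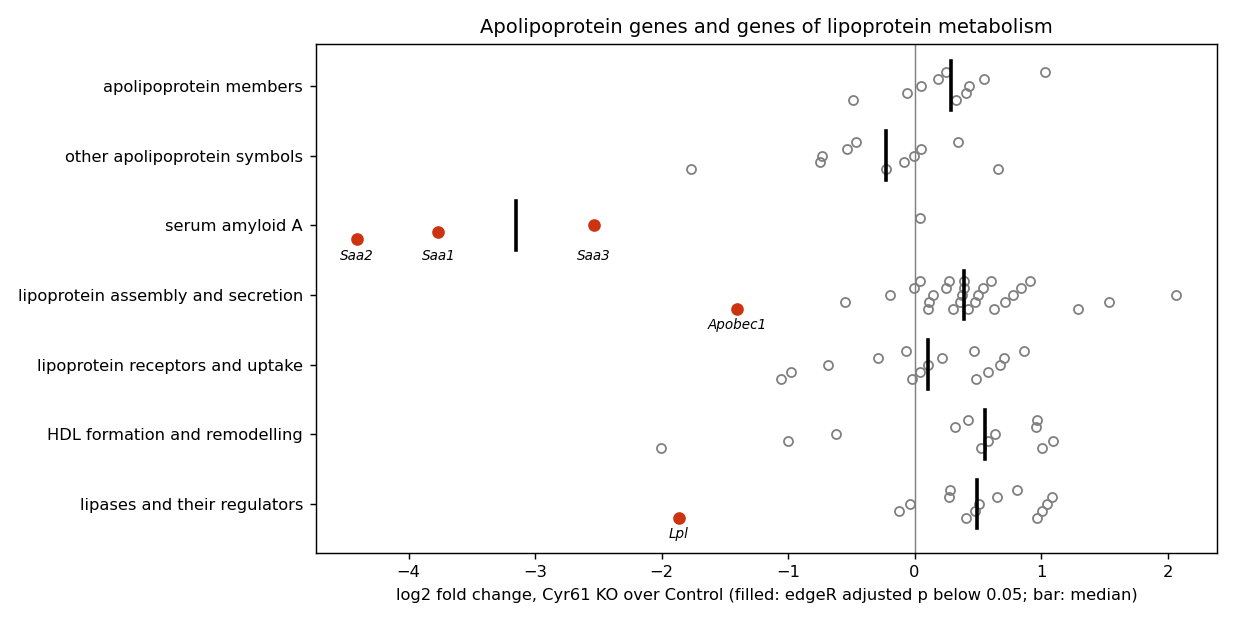
Log2 fold change, Cyr61 KO over Control, of the apolipoprotein genes and of genes in the pathway lists; filled points passed edgeR at an adjusted p below 0.05, and bars are list medians. The 3 filled serum amyloid A points are the largest decreases shown among these lists.

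Of 28 genes of lipoprotein assembly and secretion 0 rose and 1 fell by edgeR (median 0.39). DESeq2 called 4 higher and 1 lower, and 6 had an unadjusted p under 0.05, to be read against the 16.8% and 27.4% of all genes. Apobec1, the enzyme that edits Apob RNA to its short form, was at 60.8, 71.3 and 41.3 CPM in the controls and 20.3, 16.2 and 29.1 CPM in the knockouts (log2 fold change -1.40, edgeR adjusted p = 0.0427), with no overlap. Leaving out replicate 1 or 2 of the controls, or replicate 1 or 2 of the knockouts, ended the call (edgeR adjusted p = 0.0762, 0.0813, 0.107 and 0.182). The log2 fold change of Apobec1 stayed within -1.65 to -1.20 when each library was left out. A1cf, the partner that carries the editing enzyme to Apob RNA, was at 37.5, 11.0 and 23.0 CPM and at 46.3, 127 and 127 CPM, with the 3 knockouts above every control (log2 fold change 2.07, edgeR adjusted p = 0.0583). Of all tested genes, 17.3% had every knockout higher and 17.9% every knockout lower. Mttp, which loads lipid onto apolipoprotein B, was at 0.91 (adjusted p = 0.116). A1cf and Mttp were chosen after their values were seen, and neither passed.

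Among lipases and their regulators 0 of 14 rose and 1 fell by edgeR (median 0.50). DESeq2 called 3 higher and 1 lower (16.8% of all genes), and 5 had an unadjusted p under 0.05 (27.4% of all tested genes). Lpl, lipoprotein lipase, which Apoc2 and Apoa5 activate and Apoc1 and Apoc3 restrain, was at 530.4, 676 and 405 CPM in the controls and 138, 81.5 and 223 CPM in the knockouts. The decrease passed (log2 fold change -1.86, edgeR adjusted p = 0.0445), with no overlap between groups (every knockout was lower in 17.9% of all tested genes). Leaving out the same libraries ended this call too (edgeR adjusted p = 0.0783, 0.0805, 0.119 and 0.188). The log2 fold change of Lpl stayed within -2.28 to -1.56 when each library was left out. Macrophages also express Lpl, and the macrophage marker sums were lower in every knockout, as given above. By edgeR 5 of 15 markers were called lower (2.37% of all tested genes). The markers did not move alike. Spp1, also on the cholangiocyte list, made up 1113 CPM of the sum in Control replicate 2. The resident macrophage markers Timd4, Clec4f, Vsig4 and Marco were at log2 fold changes of 1.58, 0.22, -0.15 and -0.33. None of these was called by edgeR, while DESeq2 called 1 of the 15 macrophage markers higher and 9 lower (16.8% of all genes). Their part in the Lpl value was not tested.

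Of the receptor and uptake genes 15 of 16 were tested and 0 called (median 0.11), with Lrp1, the remnant receptor, at 0.47 and Lsr at 0.11. Of 12 genes of high density lipoprotein formation 0 were called (median 0.56), with Pon1, an antioxidant enzyme carried on the particle, at 1.10 (edgeR adjusted p = 0.0834) and Lcat at 0.42. Unadjusted p was under 0.05 for 3 and 6 genes of the receptor and formation lists (27.4% of all tested genes). DESeq2 called 1 higher and 1 lower in the receptor list and 3 higher and 2 lower in the formation list (16.8% of all genes).

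Neighbours of the clusters were compared with the members that lie among them. Of 9 genes beside the chromosome 9 cluster 1 fell, Tagln, a smooth muscle gene (log2 fold change -2.04, edgeR adjusted p = 0.0328), and the median was 0.04. DESeq2 called 2 of the 9 higher and 1 lower (16.8% of all genes), and 5 had an unadjusted p under 0.05 (27.4% of all tested genes). The call of Tagln was lost without Cyr61 KO replicate 1 or 2 (0.0913 and 0.134). Its log2 fold change stayed within -2.24 to -1.45 when each library was left out. Of 11 genes beside the chromosome 7 cluster 0 were called by edgeR (median -0.47). DESeq2 called 1, and 2 had an unadjusted p under 0.05, against the same 16.8% and 27.4%. Apoc4, next to Apoc2, was at 293, 552 and 417 CPM in the controls and 483, 220.1 and 167 CPM in the knockouts (-0.54, adjusted p = 0.442). As in Apoc3, Cyr61 KO replicate 1 was the highest knockout and replicates 2 and 3 lay below every control. The read-through gene Gm44805 spans nearly all of Apoc4 on the same strand, so this row may also lack shared reads. The exon bases that Apoc4 shares with it were not measured.

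The calls among the pathway and neighbour genes also depended on the scaling. With library totals as the only scaling, Saa1, Saa2, Saa3, Apobec1, Lpl and Tagln all missed the threshold (edgeR adjusted p from 0.0511 to 0.0821) at log2 fold changes of -3.90, -4.54, -2.86, -1.71, -2.16 and -2.44, each farther from 0 than with TMM. With scaling to hepatocyte genes Saa1 and Saa2 passed (0.0298 and 0.0164) and the other genes of that series did not. With the length offset Saa1 and Apobec1 missed it (0.0541 and 0.0642). Over all genes 50 were called with library totals and 53 with hepatocyte scaling, against 467 with TMM. Saa1, Saa2, Saa3, Apobec1, Lpl and Tagln all passed with DESeq2 (adjusted p from 2.39e-07 to 0.00466), which called 16.8% of all genes. All of them also passed with the DESeq2 size factors in edgeR (adjusted p from 0.0238 to 0.0448).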

How the data were processed

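The authors deposited 1 table of read counts per gene for each library. The submitters' processing notes name the trimmer Trimmomatic (0.38), the aligner STAR (2.6.1a) and 2 builds, mm10 and hg38. The release of the annotation is not given in the sources used here. Reads outside genes (25.7% in Control replicate 2, 4.27% to 7.14% in the other libraries), multimapping reads (19.4% against 3.74% to 5.73%) and reads in several genes were left out of the library sizes. Counts on the strand that fits the kit were fitted in R 4.3.3 by edgeR 4.0.16 (quasi-likelihood F test, two-sided, TMM, filterByExpr with a minimum count of 10 and total of 15, group term only, Benjamini-Hochberg adjustment over 13563 genes, threshold 0.05). Standard errors were derived from the log2 fold change and F. Lengths are union exon lengths of GENCODE M21, found for 23376 of 24411 genes. Same-numbered libraries did not deviate together and no pairing was used, though 3 libraries per group cannot exclude one.

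The members and gene lists were chosen with earlier results of these data known. Named genes are the members, Cyr61, and of each other list up to 3 called genes per direction by p, or the 2 with the highest mean CPM where none was called. For cell type marker lists counts and summed levels are given. The list of transcription factors is not reported here. The scripts were tested on simulated data. Alternatives were DESeq2 1.42.0, its size factors, library totals, scaling to hepatocyte genes, other filters, unstranded counts, a replicate block, leaving out each library and, added after seeing the data, a length offset (a lowess of centred log2 CPM on log2 length, per library) and leaving out Apoc2. No pair of replicates agreed within sampling noise (chi-square per degree of freedom at least 54.9).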

Additional observations from a re-analysis of the deposited data

How the results depend on the processing

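Clptm1, a chromosome 7 neighbour, Trf, a hepatocyte marker, and Anpep, an enterocyte marker, had log2 fold changes of 0.20, 0.07 and 0.11 and were not called. Over 15 alternative settings and 10 members, 150 fits gave 1 call, Apob with DESeq2 (adjusted p 0.0485), and adjusted p ran from 0.0485 to 0.986. DESeq2 called 2273 genes and 1 member, library totals 50 genes, hepatocyte scaling 53 genes, no low-count filter 944 genes and leaving out each library 7 to 878 genes, against 467 (145 higher, 322 lower). With library totals 27 genes were higher and 23 lower, and with hepatocyte scaling 26 and 27. The member median stayed within 0.08 to 0.49 when each library was left out. Library totals and hepatocyte scaling moved the all-gene median from -0.03 to -0.30 and -0.48 on the log2 scale, enough to turn small positive values. Signs turned with library totals for Apoa1 (-0.18), Apoa4 (-0.023), Apoc2 (-0.025), Lsr (-0.11), Clptm1 (-0.028), Trf (-0.11) and Anpep (-0.10). They turned with hepatocyte scaling for Apoa1 (-0.28), Apoa2 (-0.095), Apoa4 (-0.12), Apoc2 (-0.29), Apoe (-0.023), Lsr (-0.18), Clptm1 (-0.15), Trf (-0.14) and Anpep (-0.18). With the length offset Apoc1 was at 0.25 and Apoc3 at 0.39. Leaving out each library in turn gave -0.39 to 0.45 for Apoa1, -0.011 to 0.46 for Apoa4, -0.59 to 0.21 for Apoc3, -0.12 to 0.70 for Apom, -0.26 to 0.48 for Lsr, -0.29 to 0.41 for Trf and -0.12 to 0.39 for Anpep, and a difference in the share of counts of -0.632 to 0.625 percentage points. The causes were not tested. The replicate block gave 633 genes and 0 members called. Deviations from the group means had correlations of -0.083, -0.232 and -0.448 between same-numbered libraries. With 3 libraries per group these values cannot settle whether the numbers pair the samples. Low counts, 56 to 130 per library, limit Apoc2 more than the other members, and their cause was not tested.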
